A study of Mus musculus with 8 samples.

Results

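Txnip, the gene of thioredoxin-interacting protein, had a lower level of DNA methylation along its body in livers titled NASH (nonalcoholic steatohepatitis) than in livers of mice on a normal diet, while the levels listed for its promoter were close to 0 in both. The gene lies on chromosome 3 of mm10 from 96557957 to 96561857, on the plus strand, and is 1 of 14629 protein-coding genes whose whole span could be measured. It was chosen by its mean over that span, which was much lower in NASH libraries in these same data. Values of the gene itself are therefore given as a description, with no test. Every listed cytosine of a CpG inside the gene and within 20 kb of it on either side was taken, which gave 1340 cytosines (670 CpGs, each listed on both strands) of 30729668 in the table.

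Livers came from male C57BL/6J mice, labelled wild type and bought at 8 weeks of age, and their DNA was read by whole-genome bisulfite sequencing. The mice ate for 28 weeks either a normal diet (4 libraries titled WT, called ND here) or a diet rich in fat, cholesterol and fructose (4 libraries titled NASH). In the labels, the treatment entry contradicts the title of every sample, giving NASH for WT titles and normal diet for NASH titles. Grouping followed the titles, which match the column names of the table, and every higher and lower given here would turn around if the treatment entry were right. Nothing states that each library is a separate mouse, so p-values measure only the spread between these libraries, which may be technical.

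Values are percent methylation, with the SD over n = 4 libraries after ±, and a difference is the NASH mean less the ND mean, in percentage points. Mean methylation over all listed cytosines was 71.0% to 72.3% in the NASH and 71.1% to 72.3% in the ND libraries. Levels are listed without numbers of reads, which leaves their depth unknown, and a 0 can stand for a cytosine without reads as well as for an unmethylated one. In DNA from whole liver, a change in the mix of cells and a change of methylation within a cell type cannot be told apart.

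Txnip encodes an alpha-arrestin that binds reduced thioredoxin and restrains glucose uptake by promoting the removal of glucose transporters from the cell surface. Its transcription is among the most glucose-responsive of all genes: the transcription factors ChREBP and MondoA, each paired with Mlx, bind a carbohydrate response element just before the start of the gene. Mice that lack functional Txnip have raised blood lipids, and in humans lower methylation of a CpG at the far end of TXNIP in blood has been reported repeatedly in people with diabetes. The protein has also been tied to activation of the NLRP3 inflammasome. Methylation near a start site usually goes with silence of a gene, whereas bodies of genes are commonly methylated whether or not they are silent.

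The promoter is shown because it holds the element through which glucose acts and because every CpG in it has a listed level. The 300 bases from RefSeq (GRCm38.p6, chr3:96557707-96558006, plus strand) run from 250 bases before the start to the first 50 bases of the gene, with the carbohydrate response element in capitals.
Txnip promoter: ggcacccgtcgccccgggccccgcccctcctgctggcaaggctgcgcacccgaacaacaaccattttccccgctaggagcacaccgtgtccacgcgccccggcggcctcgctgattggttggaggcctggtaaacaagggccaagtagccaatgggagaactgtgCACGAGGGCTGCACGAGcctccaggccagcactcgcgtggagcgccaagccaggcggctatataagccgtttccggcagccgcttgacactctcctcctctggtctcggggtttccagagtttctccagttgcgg

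The element was found as a pair of CACGNG cores with 5 bases between them. This motif was present in 16 of 32851 RefSeq promoter windows of this length (0.0487%, both strands searched). Both cores were sought in the same orientation, so this is the share of that pattern and not of all carbohydrate response elements. In Txnip the match spans 85 to 69 bases before the start and consists of 2 copies of CACGAG. That core on its own is present in 6.47% of the windows. CACGTG, the palindromic E-box (7.15% of windows), and TATAAA (13.6%) had no match in the Txnip window. Only these exact letters were searched, and the similar TATATAA, which the window does hold, was not. The window also holds 2 matches to CCAAT, the box bound by NF-Y (37.4% of windows), and 1 to TGTTTAC, a forkhead factor site (3.65%), none of which contains a CpG. These are matches of letters and do not show that a factor was bound.

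The listed levels of the promoter were close to 0 in all 8 libraries. Of its 48 cytosines in 24 CpGs, 0 to 1 had a level above 0 in each NASH library. In the ND libraries that number was 7, 0, 2 and 4 in replicates 1 to 4. The mean level of the window was 0.232%, 0%, 0.347% and 1.04% in the NASH and 3.78%, 0%, 0.781% and 2.43% in the ND libraries, and the groups overlapped. Each core of the carbohydrate response element carries 1 CpG. Of their 32 listed levels (4 cytosines in 8 libraries) 31 were 0, which may include cytosines without reads, and 1, in an ND library, was 25%. The region from 1000 bases before to 500 bases after the start was at 0.779% ± 0.833 in NASH and 1.69% ± 0.911 in ND libraries, a difference of -0.908 points, which ranked 3830th from the lowest among 11570 gene starts.

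**Figure D1:**
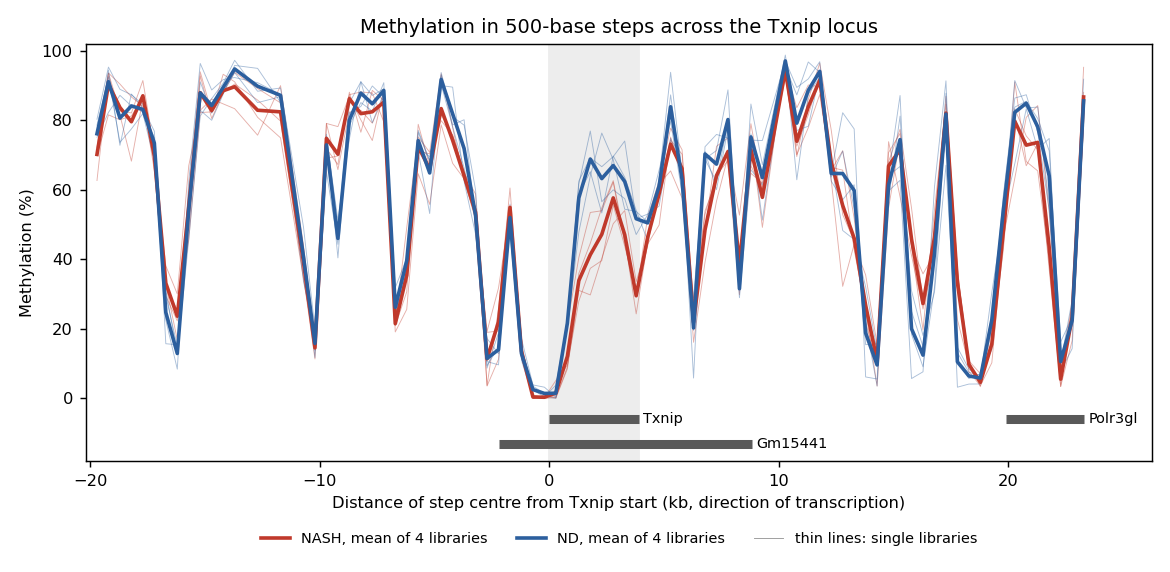
Mean methylation (%) of 500-base steps with at least 6 listed cytosines against the distance of the step's centre from the Txnip start (kb); thick lines are means of 4 libraries, thin lines single libraries, and bars mark Txnip, the long noncoding RNA Gm15441 and the part of Polr3gl in the window. The red NASH line runs below the blue ND line through most of the shaded gene and both lie near 0 at its start.

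Over the whole gene, the mean level was 28.5%, 32.0%, 34.9% and 26.7% in NASH replicates 1 to 4, and 42.3%, 42.3%, 46.7% and 43.4% in ND replicates 1 to 4. All NASH libraries lay below all ND libraries, a pattern present at 7.53% of all gene spans, and here it follows from how the gene was chosen. The group means were 30.5% ± 3.66 and 43.7% ± 2.09, a difference of -13.1 points, the eighth most negative of the 14629 spans, whose median difference was -0.247 points. The spread between libraries was wide for a gene span: the median SD over all spans was 0.997 points in NASH and 0.943 in ND, for spans with a median of 492 listed cytosines, where Txnip has 162. In ND libraries the gene was less methylated than most, since 16% of spans had a lower ND level and the median over spans was 69.9%.

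The difference was spread over the methylated part of the gene and not over its beginning, where levels were near 0. Cut into 4 segments of equal length, numbered from the start, segment 1 was at 6.08%, 2.09%, 5.15% and 1.94% in the NASH and 4.95%, 5.26%, 7.80% and 5.64% in the ND libraries, which overlapped. Segment 2 had the largest difference of the 4, with 28.9%, 37.2%, 44.4% and 26.5% in NASH and 63.8%, 57.9%, 59.8% and 54.7% in ND libraries (34.3% ± 8.18 and 59.0% ± 3.77, -24.8 points). Here the highest NASH library stayed below the lowest ND library by a wide margin. Segment 3 was at 47.7%, 57.5%, 58.1% and 44.7% in NASH and 59.0%, 60.2%, 68.3% and 71.0% in ND libraries (-12.6 points), so that the groups nearly touched. Segment 4 was at 42.3%, 42.7%, 42.3% and 50.5% in NASH and 59.9%, 67.2%, 73.2% and 58.0% in ND libraries (-20.1 points), again without overlap. NASH replicate 4, the lowest NASH library in segments 2 and 3, was the highest in segment 4. Within 1000 bases beyond the gene the groups overlapped at 36.7% ± 2.97 and 43.8% ± 3.23.

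**Figure D2:**
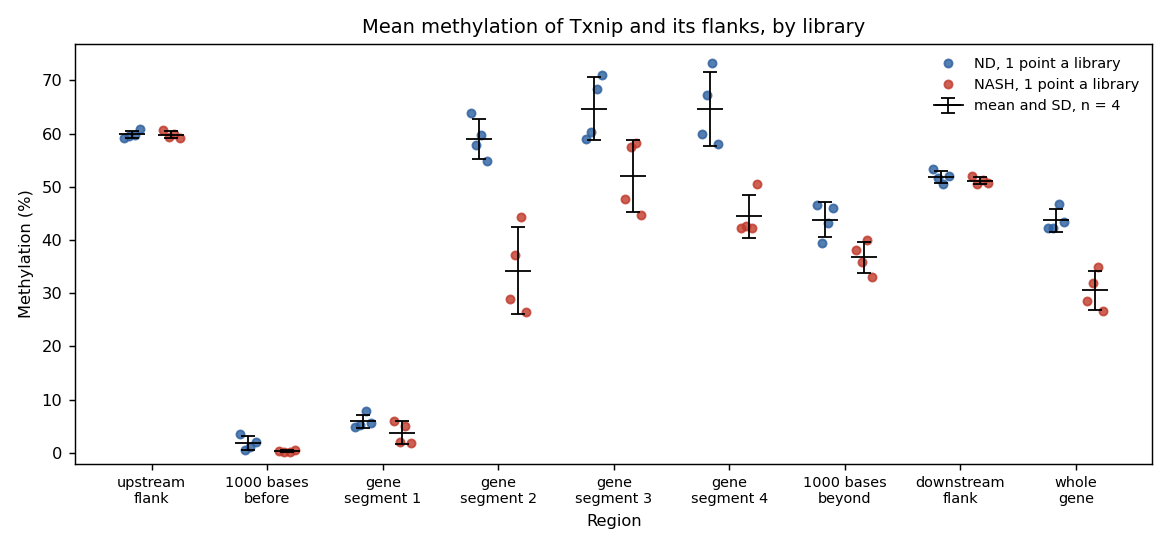
Mean methylation (%) of Txnip, its 4 segments and its surroundings in each library, with the mean and SD of each group (n = 4). NASH and ND points separate in segments 2, 3 and 4 and over the whole gene, and overlap in segment 1, just outside the gene and in both flanks.

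At single CpGs (mean of the 2 strands), 61 of the gene's 81 CpGs were lower in NASH, 15 were higher and 5 were equal. At 15 CpGs every NASH library lay below every ND library, and at 0 did every NASH library lie above. Over all 15364834 CpGs of the table these patterns were present at 1.75% and 1.5%. The gene was chosen for its lower mean in NASH, so its many lower CpGs follow from that choice and are no separate support. The 24 CpGs with an ND mean under 10% all lay in the first 608 bases after the start, and their mean was 1.67% in NASH and 1.57% in ND. The 48 CpGs with an ND mean of 50% or more began 773 bases after the start, and 45 of them were lower in NASH, with means of 47.3% and 66.6%. The 9 CpGs in between were all lower in NASH, at 17.9% and 33.9%. All 20 CpGs of segment 2 and all 11 of segment 4 were lower in NASH.

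The 3 CpGs of the window with the most negative differences among those without overlap sat close together in segment 2 of Txnip, 1676, 1695 and 1709 bases after the start. The CpG at 1676 bases was at 28.6%, 41.7%, 41.7% and 30.0% in NASH and 74.6%, 79.5%, 87.5% and 70% in ND libraries (-42.4 points). Its neighbours at 1709 and 1695 bases differed by -40.8 and -40.5 points. CpGs this close are often read on the same fragments, so they are not separate observations. A further CpG in segment 3, 2330 bases after the start, was at 21.7%, 29.2%, 20% and 31.3% in NASH and 55.7%, 64.6%, 55.0% and 75.0% in ND libraries (-37.1 points). Outside the gene, the CpG 21952 bases after the start, inside Polr3gl, averaged 31.4% in NASH and 69.6% in ND libraries. The most positive differences without overlap were all in the flanks. The CpG at -8959 bases from the start was at 60.7%, 75.0%, 75.0% and 66.7% in NASH and 10.0%, 18.3%, 39.3% and 25.0% in ND libraries (46.2 points). Those 15863, 15940, 15964 and 17947 bases after the start differed by 39.5, 37.4, 31.4 and 35.2 points.

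**Figure D3:**
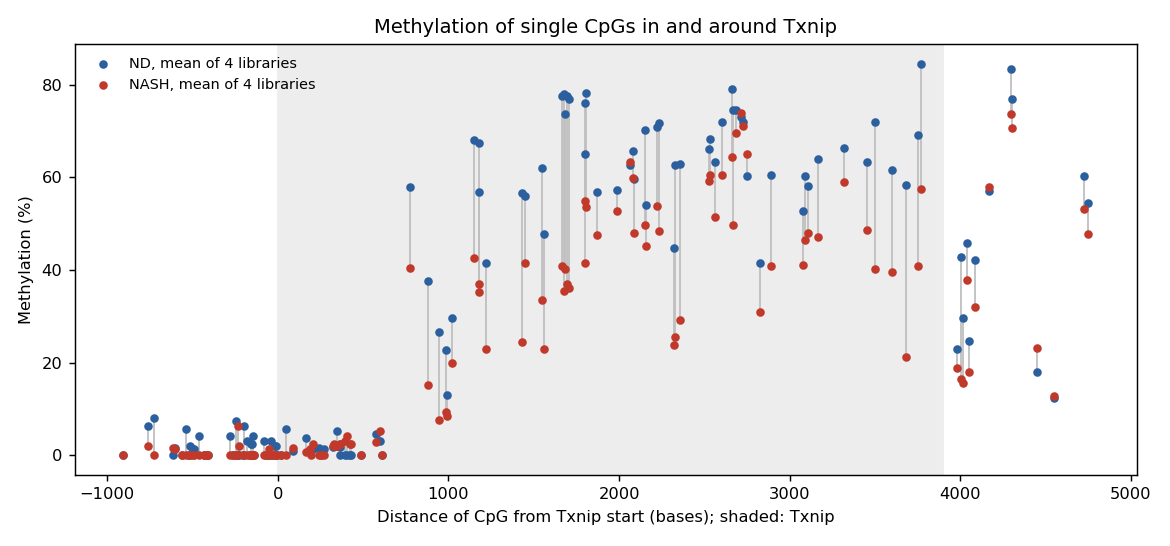
Mean methylation (%) of each CpG in NASH and ND libraries (4 each) against its distance from the Txnip start in bases, with grey lines joining the 2 means of a CpG and the gene shaded. Points near 0 around the start give way to methylated CpGs from 773 bases on, where most red NASH points lie below their blue ND partner.

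In steps of 500 bases on a fixed grid, 8 of the 9 steps that overlap Txnip were lower in NASH, with a median difference of -15.3 points. In 4 of them all NASH libraries lay below all ND libraries, a pattern at 3.32% of the 2210739 steps of the table. These steps cover the span by which the gene was chosen, so this too follows from that choice. The most negative step, from 96559500 to 96559999, was at 37.4%, 44.7%, 53.5% and 29.8% in NASH and 76.9%, 65.3%, 69.2% and 64.0% in ND libraries (-27.5 points). The step before it differed by -23.8 points, and the step over the end of the gene, from 96561500 to 96561999, by -22.2 points. Between them, the step from 96560500 to 96560999 differed by -9.31 points and its groups overlapped. The step from 96558500 to 96558999, where the methylated CpGs begin, also differed less, by -9.54 points with overlap.

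The flank means differed by less than that of the gene. From 20 kb to 1 kb before the gene, the level was 59.8% ± 0.618 in NASH and 59.8% ± 0.729 in ND libraries, a difference of -0.0476 points (exact two-sided permutation p = 0.914). From 1 kb to 20 kb beyond it, the levels were 51.2% ± 0.67 and 51.9% ± 1.12, a difference of -0.726 points (exact two-sided permutation p = 0.286). The smallest p that 4 against 4 libraries allow is 0.0286. By the median over cytosines in place of the mean, the downstream difference was -8.82 points and reached that smallest p (exact permutation p = 0.0286), and the upstream one was -3.24 points (exact permutation p = 0.0857). With every 0 left out, the differences were -1.84 points upstream and -3.67 points downstream (exact permutation p = 0.0571 for each).

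Single steps in the flanks went in both directions and none passed the test. Of 70 flanking steps tested in the fit over all steps (34 upstream and 36 downstream, none within 1000 bases of the gene), 0 were called by limma at an adjusted p under 0.05, where 0.000905% of all steps were called. At an unadjusted p under 0.05 there were 5 of 34 upstream (1 lower and 4 higher in NASH) and 10 of 36 downstream (6 lower and 4 higher). Both shares were above the 10.3% of all steps, the downstream one by more. The step from 96564500 to 96564999, inside Gm15441, was at 53.9%, 48.0%, 53.0% and 39.2% in NASH and 69.0%, 72.4%, 68.8% and 71.1% in ND libraries (-21.8 points, SE 4.0, limma adjusted p = 0.162). The groups did not overlap there. NASH lay wholly below ND at 3 of the 36 downstream steps, this one included, and at 1 of the 34 upstream steps, a pattern at 3.32% of all steps.

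Higher levels in NASH without overlap were found at 2 upstream and 3 downstream steps, a pattern at 2.63% of all steps. The step centred at -9207 bases from the start, from 96548500 to 96548999, was at 65.8%, 67.3%, 78.2% and 69.8% in NASH and 40.5%, 44.3%, 51.3% and 48.1% in ND libraries (24.2 points, SE 4.09, limma adjusted p = 0.146). The 3 downstream steps were centred 15793 to 17793 bases after the start, between Txnip and Polr3gl, and had low ND levels. Those from 96573500 and 96574000 were adjacent, and the one from 96575500 stood apart. In the gap, the steps from 96574500 and 96575000 differed by 4.60 and 0.293 points with overlap. The latter was at 81.8% in ND libraries. The step from 96573500 to 96573999 differed by 25.8 points (45.8% ± 6.09 and 20.05% ± 10.8, limma adjusted p = 0.197). Its neighbour, from 96574000, differed by 14.8 points (limma adjusted p = 0.237), and the step from 96575500 by 22.7 points (33.2% ± 7.08 and 10.5% ± 5.09, limma adjusted p = 0.145). In these steps NASH and ND libraries lay in the opposite order to that in the body of Txnip.

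**Figure D4:**
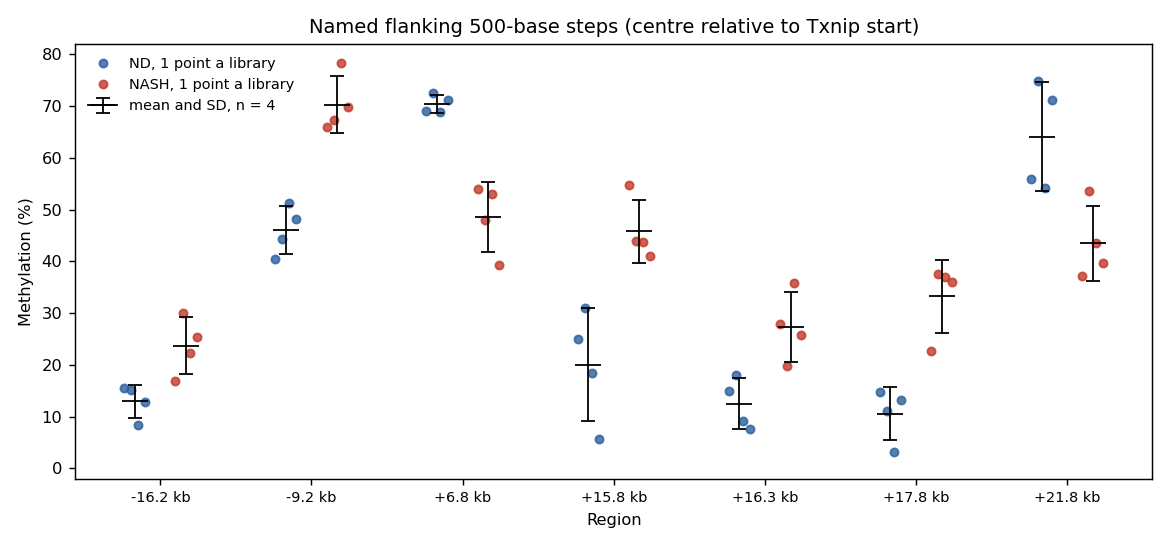
Methylation (%) of 7 flanking 500-base steps, those of the window's 5 most negative and 5 most positive steps without overlap that do not touch Txnip, by library, with mean and SD (n = 4) and ordered by the distance of their centre from the Txnip start (kb). The steps centred 6793 and 21793 bases after the start are lower in NASH and the other 5 are higher, and none passed limma's adjusted threshold.

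Gm15441 and Polr3gl are the other annotated genes in the window. Gm15441, a long noncoding RNA known in mouse liver as an antisense transcript of Txnip that is induced through PPAR-alpha, spans 96555768 to 96566801 and thus covers the whole of Txnip. On the side before Txnip it was at 13.9% ± 0.856 in NASH and 14.3% ± 1.71 in ND libraries. On the side beyond Txnip, it was at 54.2%, 50.7%, 54.8% and 51.5% in NASH and 59.2%, 59.0%, 55.3% and 58.4% in ND libraries (-5.20 points), a narrow separation without overlap that includes the 1000 bases next to Txnip. Polr3gl, which encodes a subunit of RNA polymerase III, runs from 96577872 to 96594181 on the minus strand. Its span was at 57.4% ± 1.41 in NASH and 59.9% ± 0.618 in ND libraries and did not pass (-2.49 points, SE 0.755, limma adjusted p = 0.0917), except without NASH replicate 2 (-3.05 points, limma adjusted p = 0.0465).

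Genes of 3 lists linked to Txnip were, where called, mostly higher in NASH, the opposite order to that of Txnip. Of 18 hepatocyte marker spans, 17 were called higher too. Over all spans 8.29% were called, 5.54% higher and 2.75% lower, a balance that turned to 88 higher and 147 lower spans with every 0 left out. Of 23 listed partners of ChREBP and MondoA and their glucose-induced targets, 20 could be tested, 6 rose and 0 fell, with a median difference of 1.55 points. The genes of ChREBP (Mlxipl) and MondoA (Mlxip) were not among those tested, and Mlx differed by 0.6 points (limma adjusted p = 0.81). Slc2a2, the glucose transporter of hepatocytes, rose from 58.8% ± 0.918 to 65.3% ± 1.59 (6.52 points, SE 0.87, limma adjusted p = 0.00626). Khk, the fructokinase, rose from 36.8% ± 1.95 to 42.9% ± 1.48, and Elovl6, a fatty acid elongase, from 68.9% ± 1.23 to 71.9% ± 0.584. Acly, ATP citrate lyase, and Mttp, which loads lipid onto lipoproteins, rose by 2.87 and 2.72 points. With every 0 left out, 0 genes of the list were called higher and 1 lower. The list had 3 rises without NASH replicate 1, NASH replicate 4 or ND replicate 4 and 2 without ND replicate 1. Slc2a2 was called whichever library was left out. Khk was not called without NASH replicate 1, NASH replicate 4 or ND replicate 1 (limma adjusted p up to 0.065). Elovl6 was called in 1 of the 8 such fits, the one without ND replicate 2.

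The thioredoxin and peroxiredoxin genes had 5 rises and 0 falls among 18 tested spans, with a median difference of 1.25 points. Txnrd2, counted among the 18, had a level of 0% in both groups, which may stand for cytosines without reads. Txn1, the thioredoxin that Txnip binds, rose from 43.5% ± 0.262 to 47.6% ± 0.675 (4.13 points, SE 0.482, limma adjusted p = 0.00438). The peroxiredoxins Prdx1 and Prdx6, which remove peroxides, rose from 28.2% ± 1.30 to 33.7% ± 1.95 and from 40.4% ± 1.88 to 45.4% ± 0.853, and Glrx5, a mitochondrial glutaredoxin, from 36.4% ± 1.05 to 42.1% ± 2.59. Txnl4a, a thioredoxin-like splicing factor, rose by 2.80 points. With every 0 left out, 0 of this list were called. There were 2 rises without NASH replicate 1 or ND replicate 1, and 3 without NASH replicate 4, ND replicate 2 or ND replicate 3. Txn1 was called whichever library was left out, while Prdx1 was not without NASH replicate 1 or ND replicates 1, 2 or 3, and Prdx6 not without NASH replicates 1, 2 or 4 or ND replicate 1. Glrx5 was called in 1 of the 8 such fits, the one without NASH replicate 2.

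Among 16 alpha-arrestins and partners or regulators of Txnip, 5 rose and 1 fell. Nlrp3, the inflammasome sensor, fell: its span was at 81.3%, 79.9%, 80.4% and 80.0% in NASH and 83.2%, 82.6%, 83.0% and 83.3% in ND libraries (-2.60 points, SE 0.399, limma adjusted p = 0.0105). Foxo1, a forkhead factor of the insulin response, rose from 55.2% ± 0.762 to 58.7% ± 0.713. Prkaa2, a catalytic subunit of the kinase AMPK, and Nr3c1, the glucocorticoid receptor, rose by 2.85 and 2.64 points, and Map3k5, the stress kinase that thioredoxin holds in check, by 1.54 points. Nedd4l, a ubiquitin ligase, rose by 1.45 points. With doubtful zeros left out 2 genes of the list were called higher, and with every 0 left out 0, while Nlrp3 was called lower under both and whichever library was left out. Foxo1 was also called whichever library was left out. Map3k5 was called in none of these 8 fits, Prkaa2 only without NASH replicates 2 or 3, and Nr3c1 only without NASH replicate 2 or ND replicate 4. Rises numbered 1 without NASH replicate 1, NASH replicate 4, ND replicate 1 or ND replicate 2, 2 without ND replicate 3, and 3 without NASH replicate 3 or ND replicate 4. Over gene starts 0 genes of the 3 lists were called, where 0.0259% of all starts were called. Limma on all starts called 3 of 11570, with 1295 at an unadjusted p under 0.05.

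**Figure D5:**
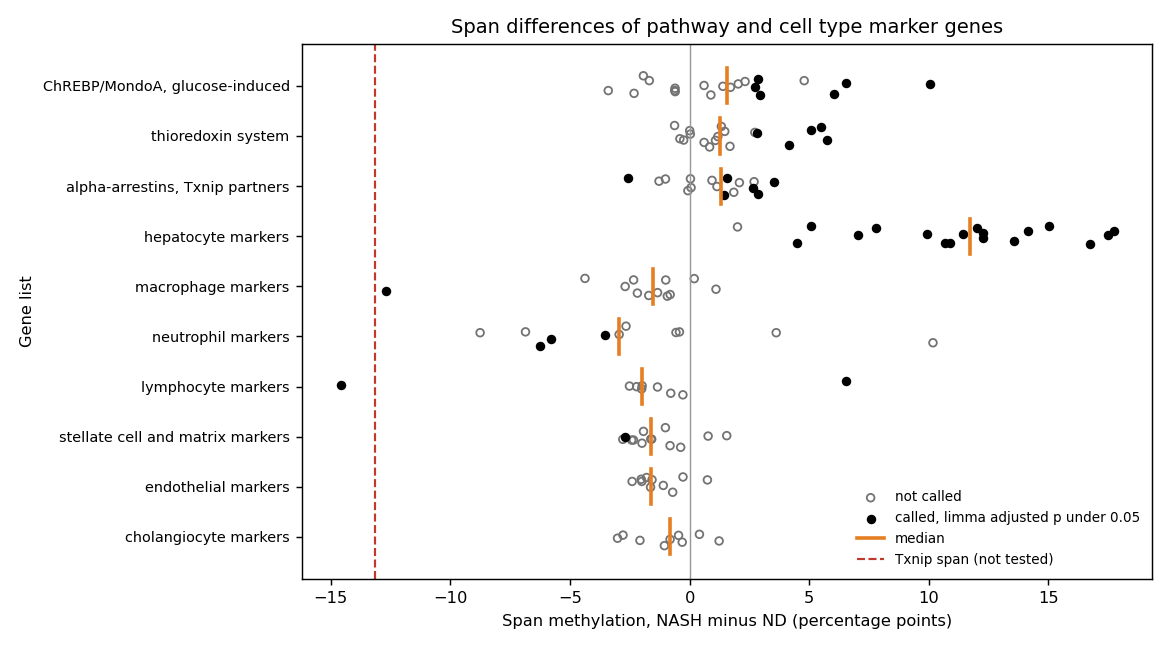
Difference in span methylation (NASH minus ND, percentage points) of each measured gene in the pathway and marker lists; filled points were called by limma, orange bars are list medians, and the dashed line is Txnip, which was not tested. Hepatocyte markers lie to the right, most markers of other cell types lie a little left of 0, and Txnip at -13.1 points lies to the left of all but 1 lymphocyte gene at -14.6 points.

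Hepatocyte markers were higher in NASH in the same libraries, while few markers of other cell types were called. The part of cell types in the Txnip difference was not tested. Over all spans 5.54% were called higher and 2.75% lower. Of 18 hepatocyte marker spans 17 rose and 0 fell, with a median difference of 11.7 points. The list's mean level was 52.2% to 57.0% over the NASH and 42.0% to 43.7% over the ND libraries. Of 12 macrophage spans 1 fell (median -1.53 points, mean level 69.3% to 70.2% in NASH and 71.1% to 72.8% in ND libraries). Of 11 neutrophil spans 3 fell (median -2.95 points, 71.8% to 72.8% and 73.1% to 76.3%). Of 9 lymphocyte spans 1 rose and 1 fell (median -1.99 points, 75.3% to 78.1% and 77.7% to 79.9%).

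Of the remaining marker lists, only the stellate one had a called span, where 8.29% of all spans were called. Of its 13 stellate cell and matrix spans 1 fell (median -1.63 points, 66.3% to 69.3% in NASH and 67.7% to 69.4% in ND libraries). None of the 10 endothelial spans was called (median -1.61 points, 65.6% to 66.3% and 66.8% to 67.7%), nor any of the 9 cholangiocyte spans (median -0.82 points, 56.2% to 58.8% and 58.0% to 58.7%). In all 8 libraries the hepatocyte list had a lower mean level than the macrophage, neutrophil and lymphocyte lists. The small counts turned on single libraries: without NASH replicate 3 there were 2 macrophage, 1 neutrophil, 2 lymphocyte, 4 stellate and 1 cholangiocyte falls. Macrophage falls numbered 0 without NASH replicate 4, ND replicate 1, ND replicate 2 or ND replicate 3. Neutrophil falls numbered 0 without ND replicate 1, ND replicate 2 or ND replicate 3 and 1 without NASH replicate 4, and 1 endothelial span was called lower without ND replicate 2.

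The gene spans nearest to Txnip in their 8 library levels were Tor4a, Ltb4r2, Phospho1, Vmn1r234 and Oxt, with a mean absolute distance of 3.32 to 4.78 points per library. Tor4a, a torsin family gene on chromosome 2, was the nearest, with 36.4%, 33.1%, 35.7% and 29.9% in NASH and 47.0%, 43.3%, 38.9% and 43.3% in ND libraries. Its groups did not overlap and it fell (-9.33 points, SE 1.99, limma adjusted p = 0.0311). Tor4a was picked for levels near those of Txnip, which favours a lower level in NASH, so this p is no separate support. The other 4, among them the leukotriene receptor gene Ltb4r2 and the oxytocin gene Oxt, were not called (limma adjusted p = 0.114 to 0.351). Vmn1r234, a vomeronasal receptor gene, had only 10 listed cytosines.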

How the data were processed

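The authors deposited percent methylation for each cytosine of a CpG, with no read counts. Per the labels' protocols, liver DNA was sonicated, treated with bisulfite and made into libraries. The submitters' processing notes name FastQC and mm10, while aligner and caller were not given in the sources used here. Cytosines on 15 placed chromosomes were read, and the table ended within chromosome 5. It lists all 290334 CpGs of the RefSeq promoter windows on these chromosomes, each 1 base above its RefSeq position, so positions were lowered by 1 base. Because every CpG is listed, cytosines without reads seem to be written as 0. The doubtful ones, a 0 whose 10 nearest cytosines had a median of 50% or more, made up 2.01% to 2.40% of values per library and 1.00% in Txnip.

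Region levels are unweighted means over at least 6 listed cytosines. Gene spans, gene starts (1000 bases before to 500 after, for the 11637 genes with a strand in the RefSeq promoter table) and 500-base steps were each fitted with limma 3.58.1 (R 4.3.3, mean-dependent prior variance), with Benjamini-Hochberg adjustment over all regions and calls at an adjusted p under 0.05. Flank means were compared by exact permutation over the 70 assignments of libraries. The fit was tested on simulated data. Python 3.11.15, numpy 2.4.6, pandas 2.3.3 and scipy 1.17.1 were used. ND columns were matched to the WT titles by number, as no other group remained.

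Txnip, the lists and the rules were chosen with earlier results of these data known. Named were the genes of the window, the 5 largest differences without overlap in each direction among its steps and CpGs, called list genes (at most 4 per direction) and the 5 spans nearest to Txnip. Acly, Mttp, Txnl4a and Nedd4l were added after their values were seen. The values of 1 further called list gene are not reported here. Alternatives treated zeros, the minimum of positions, the scale, the mean, replicate numbers and single libraries differently.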

Additional observations from a re-analysis of the deposited data

Results flagged for a closer look

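In 4 of 72 groups of 4 libraries looked at, 1 library stood far from the other 3, and chance flags about 1 group in 20. In segment 4 of Txnip, NASH replicate 4 was at 50.5%, above the other NASH libraries at 42.3% to 42.7%. In the step from 96575500, NASH replicate 1 was at 22.7%, below the other NASH libraries at 35.9% to 37.5%. In the span of Glrx5, ND replicate 1 was at 34.8%, below the other ND libraries at 36.8% to 37.0%. In the span of Polr3gl, ND replicate 2 was at 59.0%, below the other ND libraries at 60.1% to 60.3%.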

How the results depend on the processing

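The Txnip span difference was negative under every alternative run. It ran from -14.6 to -11.9 points with 1 library left out. Its sign could not turn there, as the gene was chosen by this difference and its groups do not overlap. The difference was -13.1 points with doubtful zeros and -14.8 with every 0 left out, and -23.3 points by the median over cytosines. Called spans numbered 1213, and 235 with every 0 left out (88 higher and 147 lower, against 810 and 403), 343 with the replicate block and 600 to 1159 with 1 library left out. Called starts numbered 3, and 18 without doubtful zeros, 17 at 12 or more positions, 5 on the logit scale, 0 with every 0 left out, 0 with the replicate block and 1 to 5 with 1 library left out. Called steps numbered 20 (14 higher, 6 lower), 17 on the logit scale (9 higher, 8 lower), 12 at 12 or more positions, 3371 with every 0 left out (1569 higher, 1802 lower), 0 with the replicate block (208103 at an unadjusted p under 0.05) and 22 to 56 with 1 library left out. More steps were called lower than higher without ND replicate 1 (7 higher, 15 lower), 2 (14 and 22), 3 (8 and 21) or 4 (10 and 21), and more higher than lower without any 1 NASH library. The cause of these moves was not tested. The upstream flank difference ran from -0.325 to 0.303 points with 1 library left out, so its sign turned, and the downstream one from -1.17 to -0.26 points. No such test could pass, as 4 against 3 libraries allow no p below 0.0571. With every 0 left out they were -1.84 and -3.67 points (exact permutation p = 0.0571 for each). By the median the downstream flank differed by -8.82 points (exact permutation p = 0.0286).

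Of 13 called list genes followed through the alternatives, none changed sign in any alternative. With the replicate block 12 lost their call, with every 0 left out 12, and with 1 library left out 3 to 9. Deviations of same-numbered libraries had correlations of -0.0242, 0.000728, 0.0736 and 0.0231 over spans for numbers 1 to 4. These values give no clear sign that the numbers pair the samples, but cannot exclude it. Called hepatocyte markers numbered 17, and 7 with every 0 left out, 9 with the replicate block and 14 to 16 with 1 library left out. Without read counts, depth cannot be weighed at single CpGs.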
